A study of Mus musculus with 15 samples.

Results

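Cultures of primary mouse hippocampal neurons that received acetate together with an inhibitor of ACSS2 were compared, by RNA-seq, with cultures that received neither agent. The comparison was defined by the labels alone and used 8 of the 15 libraries of the series: the 4 libraries of cultures given 20 µM ACSS2 inhibitor and 5 mM acetate (inhibitor acetate 1 to 4) and the 4 libraries of cultures given only the solvents of both agents (DMSO vehicle 1 to 4). The acetate vehicle was the neurobasal medium itself, and the solvent of the inhibitor was DMSO diluted in that medium. In all groups the cells, plated by a core facility, had differentiated for 7 days in neurobasal medium with GlutaMAX and B27 and were then treated for 24 h. The sources used here do not give the strain, age or number of animals. Neither is it stated that replicates came from separate cultures, and p-values therefore reflect only how far these samples spread, which may be technical. Acetate alone (DMSO acetate, 4 libraries) and inhibitor alone (inhibitor vehicle, 3 libraries) served to place the double treatment.

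ACSS2 joins acetate to coenzyme A. Part of the enzyme lies in the nucleus of neurons, where the acetyl-CoA it makes can be used to acetylate histones at active genes, and the citrate-cleaving enzyme ATP-citrate lyase is the other main source of acetyl-CoA outside mitochondria. In hippocampal neurons, histone acetylation is tied to activity-induced transcription, in which synaptic input first switches on immediate early genes such as Fos and Arc and then effectors such as Bdnf and Vgf. The comparison of doubly treated with untreated cultures gives the net state of the cells and does not separate the agents.

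The text uses TMM-scaled CPM (counts scaled to a common library size) for levels and log2 folds for differences, and "rose" and "fell" stand for a Benjamini-Hochberg adjusted p under 0.05 in edgeR's quasi-likelihood test. Folds are on the log2 scale throughout, also where a gene rose or fell by a value. Gene counts per library were 19929931 to 27262766 with vehicle and 21323812 to 23235349 after both agents. The test covered 15075 of the 24498 genes. Of these, 3427 rose (22.7%) and 4175 fell (27.7%), so that 50.4% changed, and the median fold over all tested genes was -0.03. The 2 sets of 4 libraries did not overlap for 6687 genes (44.4%). The falls were deeper than the rises: 1809 genes fell and 431 rose by over 1 on the log2 scale, and 857 fell and 35 rose by over 2. With libraries scaled on pan-neuronal markers instead, the median over all genes moved to -0.66, and 412 genes rose while 11212 fell, so the direction of small rises depended on the scaling.

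The largest rises included genes of low and of high abundance. The largest rises and falls were named only among genes whose 2 groups of libraries did not overlap (44.4% of all genes). Non-overlap is therefore no further support for them. Nts, the precursor of the neuropeptide neurotensin, was at 0.451, 0.196, 0.649 and 0.689 CPM in DMSO vehicle 1 to 4 and at 9.58, 9.04, 8.44 and 9.09 CPM in inhibitor acetate 1 to 4. Its log2 fold was 4.21 (SE 0.31, adjusted p = 6.84e-07). Every doubly treated library lay far above every vehicle library, although 1 read count was worth 0.0326 to 0.0464 CPM in these libraries and the vehicle levels therefore rest on few reads. Nrsn2, which encodes a vesicle membrane protein of neurons, was at 1.5, 1.11, 1.53 and 1.53 CPM with vehicle and at 13.2, 13.0, 10.4 and 14.8 CPM after both agents, a fold of 3.18 (SE 0.18). Derl3, a component of endoplasmic reticulum-associated degradation (chromosome 10, 75893413 to 75895941 in GRCm38), rose from 0.940, 1.43, 1.34 and 2.26 CPM to 11.8, 10.8, 10.8 and 9.76 CPM, a fold of 2.85 (SE 0.24).

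Among abundant genes Mdga1, whose product binds neuroligins at the cell surface (chromosome 17, 29827949 to 29970087), was at 628, 611, 631 and 611 CPM after double treatment. Its vehicle libraries were uneven, at 238 CPM in DMSO vehicle 1 and 47.6, 70.6 and 56.2 CPM in the others (fold 2.59, SE 0.48, adjusted p = 0.000614). Fxyd7, a regulator of the sodium pump in brain, showed the same uneven vehicle levels (34.6 CPM in DMSO vehicle 1 and 10.2 to 13.3 CPM in the others) and rose to 87.4 to 105 CPM. Fam131c rose by 2.32 (SE 0.12), Plcxd2, a phospholipase C-like gene, by 2.37 (SE 0.28), Il34, which encodes a ligand of the colony stimulating factor 1 receptor, by 2.13 (SE 0.18), and Rasgrp2, an exchange factor for the GTPase Rap1, by 1.81 (SE 0.16). Non-overlap of the libraries of the 2 groups was a condition for naming Mdga1, Fxyd7 and these 4 genes.

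The largest falls included genes known from muscle, immune and connective tissue cells. Acta2, the smooth muscle actin, was at 73.1, 124, 112 and 204 CPM with vehicle and at 0.740, 1.42, 0.788 and 1.30 CPM after both agents, a fold of -6.91 (SE 0.82, adjusted p = 2.42e-05). C3, the central complement component, went from 5.64, 83.7, 48.4 and 48.8 CPM to 0.392, 0.597, 0.0927 and 0.405 CPM. For this gene DMSO vehicle 1 was the lowest vehicle library. That it lay above all treated ones was a condition for naming the gene. Cyr61 and Ctgf, secreted matrix-associated proteins, fell by 3.75 (SE 0.44) and 3.70 (SE 0.44), and for these the vehicle libraries were more alike, at 87.6 to 165 CPM and 68.0 to 114 CPM.

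Marker lists followed this pattern. All 14 tested microglial markers fell (median fold -4.25), as did 10 of 13 oligodendrocyte lineage markers (median -2.55), 7 of 11 vascular markers (median -2.86), 10 of 12 meningeal and fibroblast markers (median -2.67), 8 of 9 ependymal and choroid plexus markers (median -2.01) and 7 of 15 astrocyte markers (median -0.79), and none of these rose. Of all genes 27.7% fell and 22.7% rose. Summed over the microglial list, levels were 198 to 925 CPM with vehicle and 49.6 to 104 CPM after both agents. The sums were 188 to 473 and 41.6 to 57.6 CPM for the vascular list, 185 to 833 and 71.3 to 96.2 CPM for the meningeal list, and 6720 to 14071 and 4678 to 6708 CPM for the astrocyte list. The oligodendrocyte sums went the other way, at 883, 409, 317 and 372 CPM in DMSO vehicle 1 to 4 and 959, 578, 1102 and 440 CPM in inhibitor acetate 1 to 4. The groups overlapped only through DMSO vehicle 1. Folds in this list ran from -7.34 to 1.45, the highest of them not called. Listed at 0 in at least 1 doubly treated library were Cx3cr1, Enpp6, Cldn11, Cdh5, Flt1 and Gjb6, of which Gjb6 also had 0 in a vehicle library, and no marker of these 5 lists was at 0 in all 4. Among single markers Sox10, the transcription factor of the oligodendrocyte lineage, fell by 4.55 (SE 0.65), Pdgfrb of pericytes had a fold of -1.94 (SE 0.34), Foxj1 of ciliated cells fell by 2.21 (SE 0.30), Gja1, the astrocyte connexin, by 1.46 (SE 0.17) and Sox9 by 0.79 (SE 0.13). In bulk RNA, fewer cells of a type and less RNA per cell cannot be told apart.

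**Figure D1:**
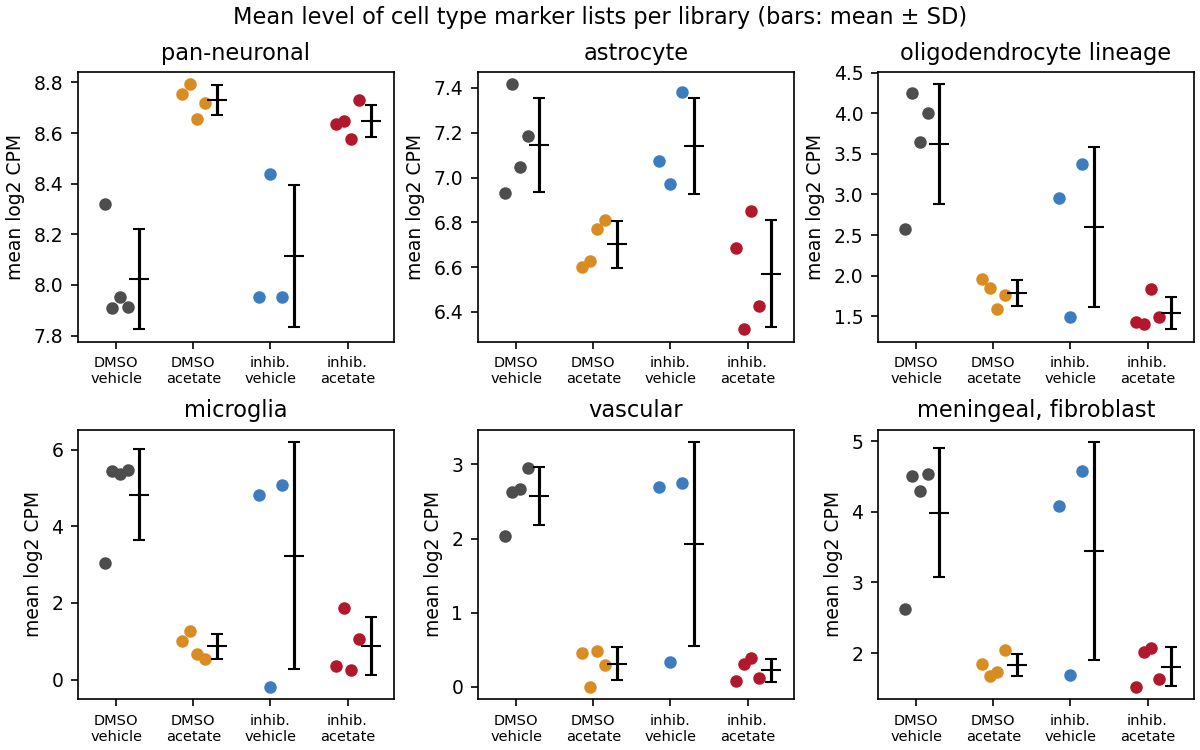
Mean log2 CPM of 6 cell type marker lists in each of 15 libraries by treatment group, with points for libraries and bars for the group mean and SD. Microglial markers lie at 3.03 in DMSO vehicle 1, at 5.37 to 5.45 in the other DMSO vehicle libraries and at 0.24 to 1.87 in inhibitor acetate, while pan-neuronal markers lie at 7.91 to 8.32 and 8.58 to 8.73.

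All cultures were mixed, with neuronal and glial markers present. In 3 of 4 vehicle libraries the summed CPM of the astrocyte list (11920 to 14071) exceeded that of the pan-neuronal list (5292 to 5733), sums that are not per length, and after both agents the sums were 4678 to 6708 and 9233 to 10323. In the lists for neurons, 13 of 14 pan-neuronal markers rose (92.9%, beside 22.7% of all genes) and none fell (median 0.56), and their mean log2 CPM was 8.02 ± 0.20 (SD, n = 4) with vehicle and 8.65 ± 0.06 (n = 4) after both agents. Tubb3, the neuronal tubulin, was at 2110, 1058, 1173 and 1211 CPM with vehicle and 2668, 2882, 2414 and 2571 CPM after both agents (fold 0.92, SE 0.19), and Thy1, a neuronal surface protein, rose by 1.15 (SE 0.16). DMSO vehicle 1 stood apart from its group, with the highest pan-neuronal mean and the lowest microglial and meningeal means of the 4. Counts without it are given below only for the lists of acetyl-CoA supply, sterol and cell cycle genes. Other lists moved too. Without it the median fold of fatty acid synthesis genes went from -0.0435 to 0.1156 and that of voltage-gated channels from 0.4952 to 0.6429. Transcripts that differ between male and female cells moved as well. Xist, the RNA that silences an X chromosome and which overlaps its antisense partner Tsix in counts whose strand setting is not known, was at 61.7 to 74.9 CPM with vehicle and 135 to 160 CPM after both agents. Eif2s3y of the Y chromosome was at 17.8 to 19.4 and 10.8 to 11.9 CPM. With acetate alone Xist was at 117 to 140 CPM and Eif2s3y at 9.74 to 11.03 CPM, and with inhibitor alone at 60.9 to 67.2 and 14.03 to 20.7 CPM, so that both genes separated cultures with and without acetate. The sources used here do not say whether the groups came from the same animals, and a difference between animals cannot be told apart from acetate in any fold over vehicle. These genes were chosen because their values had been seen.

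Subtypes of neurons did not move alike. Of 15 markers of hippocampal excitatory neurons 9 rose and 5 fell, Grm2, Prox1, Fezf2, Zbtb20 and Emx1 (median 0.44). Among those that rose was Slc17a7, the vesicular glutamate transporter, at 890, 383, 527 and 517 CPM with vehicle and 1083, 1045, 1007 and 1113 CPM after both agents (fold 0.88, SE 0.21). Grm2, a presynaptic glutamate receptor enriched in granule cells, fell from 9.71, 21.5, 21.7 and 26.4 CPM to 5.96 to 8.11 CPM (fold -1.47, SE 0.33, turning to 0.18 with the non-neuronal covariate). Of 16 interneuron markers 3 rose (Slc32a1, negative when scaled on pan-neuronal markers, Dlx1 and Calb2) and 4 fell (Gad2, Pvalb, Reln and Sox6), with a median of -0.04. These are 18.8% and 25%, and those of the excitatory list 60% and 33.3%, beside 22.7% and 27.7% of all genes. Pvalb, the calcium buffer of fast-spiking interneurons, was at 2.11, 18.8, 13.9 and 14.7 CPM with vehicle and at 0.540 to 0.974 CPM after both agents. Reln, the secreted guidance protein, fell by 1.34 (SE 0.24), while Dlx1, an interneuron transcription factor, rose by 0.81 (SE 0.16). With the non-neuronal covariate Slc17a7, Prox1, Fezf2, Gad2, Pvalb, Reln and Slc32a1 lost their calls, and Emx1 and Calb2 changed sign. Zbtb20, Sox6 and Dlx1 kept their calls.

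Activity-induced genes were lower after double treatment. Of 40 immediate early and activity-induced genes, all tested, 30 fell (75%, beside 27.7% of all genes) and 1 rose, the scaffold gene Homer1 with a fold of 0.30, negative when scaled on pan-neuronal markers. The median fold was -1.05, beside -0.03 over all genes. The mean log2 CPM of the list was 4.22, 4.24, 4.17 and 4.17 in DMSO vehicle 1 to 4 and 3.09, 3.13, 3.11 and 2.99 in inhibitor acetate 1 to 4. DMSO vehicle 1, low on the microglial list, was among its group on this list. Inhibitor vehicle 2, also low on the microglial list (-0.18, against 4.81 and 5.09 in its group), was at 3.27 on this list, against 4.06 and 3.96 in its group, and so near the doubly treated libraries.

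Promoter sequences are shown for the 6 members of this list that hold a full cyclic AMP response element (CRE, TGACGTCA, its own reverse complement, at which CREB binds) within the 250 bases before the transcription start. They come from RefSeq, build GRCm38.p6, are printed 5′ to 3′ on the strand of the gene and have the CRE in capitals.
Scg2: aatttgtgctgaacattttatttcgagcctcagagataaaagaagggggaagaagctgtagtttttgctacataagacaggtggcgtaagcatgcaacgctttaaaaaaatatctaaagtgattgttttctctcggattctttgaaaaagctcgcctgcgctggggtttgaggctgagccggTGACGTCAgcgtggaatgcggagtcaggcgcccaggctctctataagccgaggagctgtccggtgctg
Pcsk1: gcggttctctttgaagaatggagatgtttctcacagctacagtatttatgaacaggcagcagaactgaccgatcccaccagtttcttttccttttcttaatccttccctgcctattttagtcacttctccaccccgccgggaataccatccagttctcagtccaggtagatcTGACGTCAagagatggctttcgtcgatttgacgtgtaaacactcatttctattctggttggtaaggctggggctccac
Btg2: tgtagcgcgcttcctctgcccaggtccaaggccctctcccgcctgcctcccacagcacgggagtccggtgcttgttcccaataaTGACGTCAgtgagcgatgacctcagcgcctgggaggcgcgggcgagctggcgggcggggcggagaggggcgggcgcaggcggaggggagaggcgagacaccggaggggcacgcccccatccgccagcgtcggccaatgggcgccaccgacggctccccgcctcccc
Dusp1: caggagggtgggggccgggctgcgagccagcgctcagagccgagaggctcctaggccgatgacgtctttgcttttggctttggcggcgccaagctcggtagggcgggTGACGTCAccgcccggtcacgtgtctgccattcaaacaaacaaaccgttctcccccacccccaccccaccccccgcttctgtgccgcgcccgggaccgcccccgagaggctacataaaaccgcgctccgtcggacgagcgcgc
Maff: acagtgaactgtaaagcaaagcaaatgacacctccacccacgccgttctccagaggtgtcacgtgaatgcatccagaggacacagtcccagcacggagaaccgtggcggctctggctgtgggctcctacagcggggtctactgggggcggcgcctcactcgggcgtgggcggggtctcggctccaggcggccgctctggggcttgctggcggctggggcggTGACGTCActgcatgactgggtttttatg
Plk2: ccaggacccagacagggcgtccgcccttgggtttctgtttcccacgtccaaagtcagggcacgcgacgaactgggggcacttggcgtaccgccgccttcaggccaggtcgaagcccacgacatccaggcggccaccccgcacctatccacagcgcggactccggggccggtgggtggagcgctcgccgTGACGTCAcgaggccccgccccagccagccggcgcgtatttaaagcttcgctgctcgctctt
The windows are chr1:79440027-79440276 for Scg2, chr13:75089607-75089856 for Pcsk1, chr1:134079156-134079405 for Btg2, chr17:26508473-26508722 for Dusp1, chr15:79347270-79347519 for Maff, at 1 of its 3 listed starts, and chr13:110394794-110395043 for Plk2. Scg2, Btg2 and Dusp1 lie on the minus strand. The CRE ends 61, 71, 159, 136, 22 and 55 bases before the start in this order. Of the 40 list members 31 had a promoter in the table, and 6 of them (19.4%) held a CRE, beside 3.03% of the 11447 tested genes with a promoter there. The core TGACG, on either strand and also counted inside a full CRE, was present in 21 of the 31 (67.7%), beside 29.5% of all. A match is a string in a window, not a measured binding site.

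The CRE-bearing members were named for that string, and their values were known when they were chosen. Scg2, the precursor of secretogranin peptides in dense core vesicles, was at 81.9, 147, 160 and 155 CPM with vehicle and at 50.4, 67.2, 64.8 and 80.3 CPM after both agents (fold -1.05, SE 0.21). The lowest vehicle library, DMSO vehicle 1, lay just above the highest treated one. Pcsk1, a protease that matures neuropeptides, fell by 0.96 (SE 0.17), Btg2, an antiproliferative factor, by 0.92 (SE 0.11), Dusp1, a phosphatase of MAP kinases, by 0.97 (SE 0.24, turning to 0.13 with the non-neuronal covariate), and Maff, a small Maf transcription factor, by 2.66 (SE 0.40). Plk2, an activity-induced kinase, was at 52.3, 59.5, 53.4 and 50.9 CPM with vehicle and at 55.6, 53.8, 54.3 and 51.3 CPM after both agents. Its groups overlapped, with a fold of -0.01 (95% interval -0.15 to 0.14, adjusted p = 0.941), so a CRE in this window was shared by genes that fell and by 1 for which no change was detected.

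Transcription factors and other early genes of the list were lower. Fos, the founding member of the AP-1 factors (chromosome 12, 85473890 to 85477273), was at 20.2, 23.8, 16.8 and 14.7 CPM with vehicle and at 7.70, 6.75, 9.74 and 5.26 CPM after both agents (fold -1.36, SE 0.27, adjusted p = 0.000804), a call that the non-neuronal covariate ended. Arc, which regulates AMPA receptor uptake at synapses (chromosome 15, 74669083 to 74672570), was at 13.1, 11.6, 14.5 and 13.3 CPM and then at 2.05, 2.62, 1.95 and 2.38 CPM (fold -2.54, SE 0.33, adjusted p = 4.33e-05). Gadd45b, a stress- and activity-induced factor, fell by 1.72 (SE 0.19), and Ier5 by 1.05 (SE 0.10). In each of these 4 genes every treated library lay below every vehicle library, as in 23.1% of all genes. Gadd45b and Ier5 were named for small p-values in this comparison, so non-overlap adds no support for them.

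Among effectors Bdnf, the neurotrophin that supports synaptic plasticity (chromosome 2, 109674700 to 109727007), was at 61.6, 50.0, 51.8 and 47.7 CPM with vehicle and at 16.7, 14.2, 18.8 and 17.5 CPM after both agents, a fold of -1.65 (SE 0.14, adjusted p = 2.39e-06). Vgf, a secreted growth factor-induced protein (chromosome 5, 137026392 to 137033351), was at 554, 502, 725 and 735 CPM and then at 131, 197, 134 and 193 CPM, a fold of -1.94 (SE 0.21). Nptx2, a pentraxin that clusters AMPA receptors (chromosome 5, 144545902 to 144557478), was at 25.7, 37.7, 51.3 and 48.8 CPM and then at 5.70, 6.20, 6.17 and 4.09 CPM, a fold of -2.88 (SE 0.26). For all 3 genes the treated libraries were closely grouped and lay well below the vehicle libraries. All treated libraries were below all vehicle libraries for 23.1% of all genes. Vgf and Nptx2 were named for small p-values in this comparison.

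**Figure D2:**
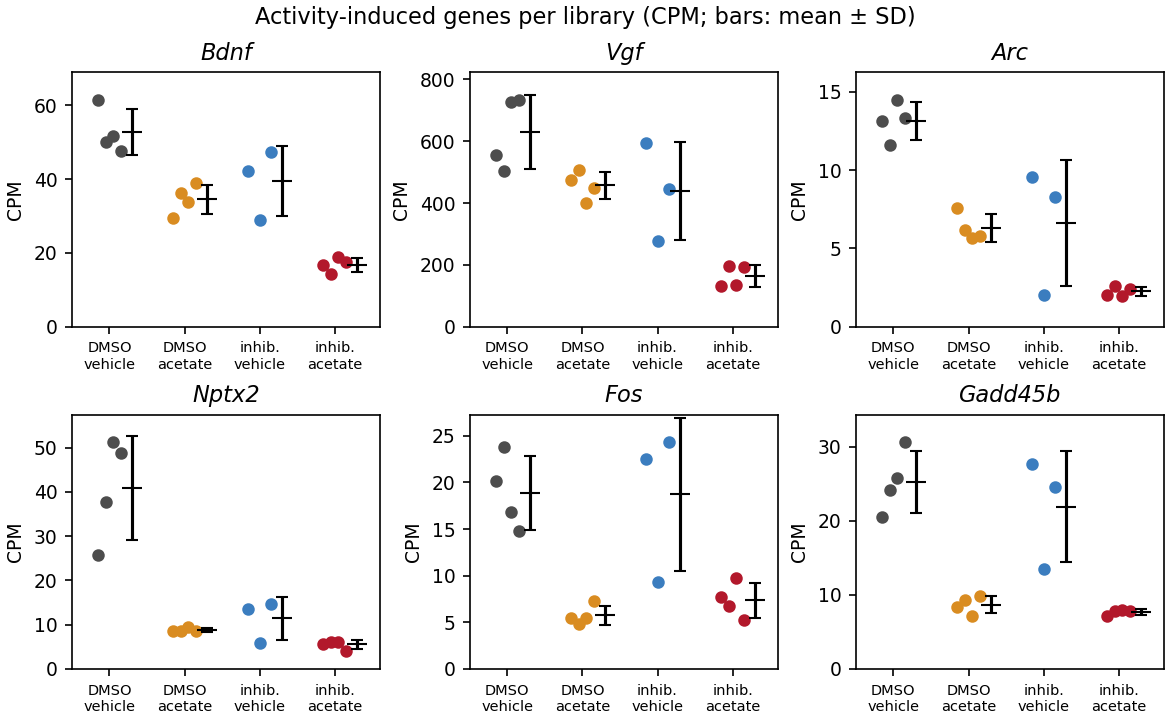
CPM of 6 activity-induced genes in each library of the 4 treatment groups, with points for libraries and bars for the mean and SD. Bdnf lies at 47.7 to 61.6 CPM in DMSO vehicle and at 14.2 to 18.8 CPM in inhibitor acetate, and in all 6 panels the inhibitor acetate libraries lie below all DMSO vehicle libraries. They do so for 23.1% of all genes.

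Neuropeptide precursors split. Of 18 tested members, 8 fell (44.4%, beside 27.7% of all genes) and 3 rose, Nts, Cck and Cort, with a list median of -0.49. Pdyn, the precursor of dynorphins, was at 25.4, 53.1, 43.1 and 46.6 CPM with vehicle and at 5.14, 6.38, 5.84 and 4.41 CPM after both agents (fold -2.95, SE 0.35). Pnoc, the precursor of nociceptin, fell by 1.79 (SE 0.33), Adcyap1, the precursor of PACAP, by 2.68 (SE 0.51), both turning to slightly positive with the non-neuronal covariate (0.0654 and 0.058), and Nmb, that of neuromedin B, by 0.66 (SE 0.13). Cck, that of cholecystokinin, was at 145 CPM in DMSO vehicle 1, at 45.8 to 61.5 CPM in the other vehicle libraries and at 203 to 227 CPM after both agents (fold 1.49, SE 0.46, turning to -0.59 with that covariate).

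Synaptic, channel and cytoskeletal genes were mostly higher relative to the whole library. Of 38 synaptic vesicle and release genes 23 rose (60.5%, beside 22.7% of all genes) and 3 fell, Vamp1, Sv2c and Unc13b. Of 32 postsynaptic density genes 21 rose and 4 fell, Dlg1, Camk2d, Baiap2 and Sipa1l1. Baiap2 lost its call without DMSO vehicle 1 and inhibitor vehicle 2 together, and with the 8 libraries of both groups alone. Glutamate receptor subunits rose in 13 of 24 cases and fell in 1, Grm2, voltage-gated channels rose in 24 of 38 and fell in 2, Kcna1 and Kcna4, and neuronal cytoskeleton genes rose in 21 of 27 and fell in none. The medians of these 5 lists were 0.35, 0.44, 0.30, 0.50 and 0.55, and scaled on pan-neuronal markers they turned to -0.25, -0.19, -0.29, -0.10 and -0.06, beside -0.66 over all genes. That scaling holds the pan-neuronal markers near 0 by design. The cytoskeletal and pan-neuronal lists have the same lowest fold of inhibitor alone over vehicle (-0.5274), so they probably share members. The cytoskeletal median of -0.06 is therefore not an independent result. Of 16 GABA receptor subunits 4 rose (25%, near the 22.7% of all genes), among them Gabra3, Gabra5 and Gabrb2, and none fell, with a median of 0.17 that turned to -0.47, and the folds of these 3 to below 0, under that scaling. With the mean level of non-neuronal markers as a covariate, 4 of the 38 vesicle genes, 1 of the 32 postsynaptic, 4 of the 24 glutamate receptor, 9 of the 38 channel and 2 of the 27 cytoskeletal genes rose. Fewer of all genes rose with that covariate too, so these counts cannot be set beside the 22.7% above. Among genes named here, Nrgn, Nlgn1, Dlg4, Grm7, Tubb4a and Gap43 were not called with the covariate.

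Within these lists, Doc2a, a calcium sensor of spontaneous release, was at 27.1, 21.5, 22.8 and 19.4 CPM with vehicle and at 59.6, 65.7, 58.2 and 63.4 CPM after both agents (fold 1.44, SE 0.15). Syt7, a slow calcium sensor, rose by 1.08 (SE 0.08), while Unc13b, a vesicle priming factor, fell by 0.62 (SE 0.08) and Vamp1, a vesicle SNARE, by 0.74 (SE 0.12). On the postsynaptic side Nrgn, a calmodulin-binding protein, rose by 1.11 (SE 0.19), the adhesion protein gene Nlgn1 by 1.16 (SE 0.20) and the scaffold gene Dlg4 by 0.70 (SE 0.12). The metabotropic receptor Grm5 was at 64.7, 50.0, 46.0 and 41.9 CPM with vehicle and at 136, 120, 130 and 164 CPM after both agents (fold 1.44, SE 0.19), and Grm7, a presynaptic receptor of the same family, rose by 1.33 (SE 0.22). Of the channels, Cacna1g, a T-type calcium channel, rose by 1.19 (SE 0.09), Scn3b, a sodium channel subunit, by 1.09 (SE 0.11) and Cacna1i by 0.94 (SE 0.10), while the potassium channel gene Kcna1 went from 120, 94.7, 97.6 and 97.2 CPM to 56.0, 59.9, 54.2 and 65.7 CPM (fold -0.80, SE 0.10). Ina, a neuronal intermediate filament, rose by 0.81 (SE 0.08), Tubb4a by 1.02 (SE 0.16) and the growth cone protein gene Gap43 by 0.85 (SE 0.15).

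**Figure D3:**
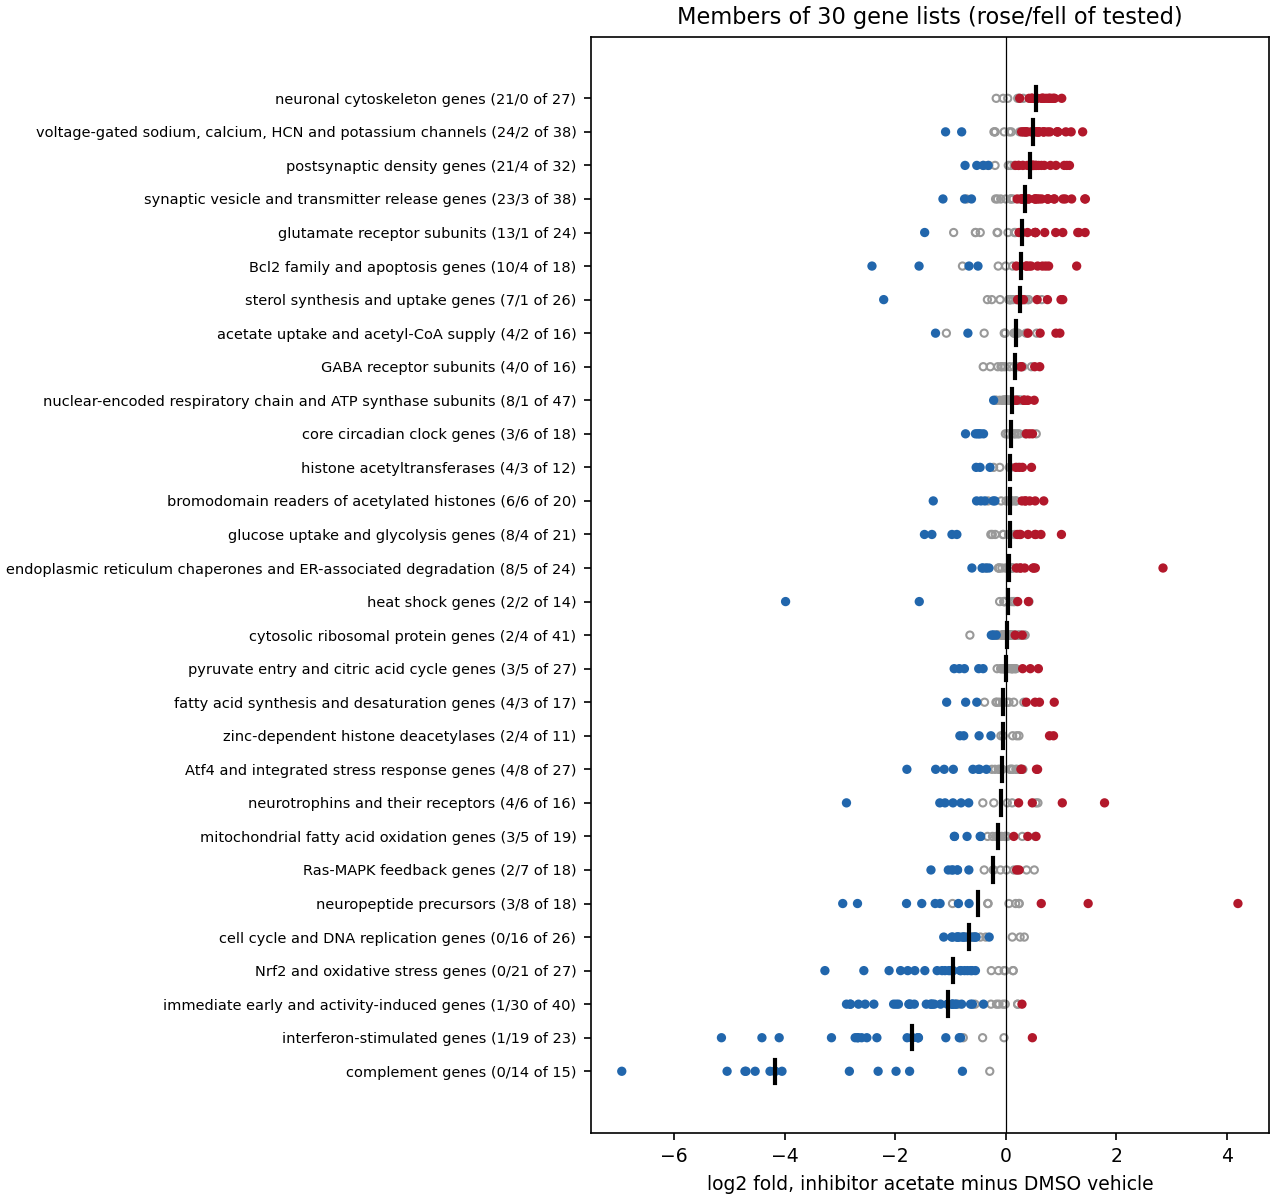
Log2 folds of inhibitor acetate over DMSO vehicle for the tested members of 30 gene lists, filled red where they rose, blue where they fell and open where they did not pass an adjusted p of 0.05, with a bar at each list's median. Medians run from -4.17 for complement genes to 0.55 for neuronal cytoskeleton genes, and immediate early genes lie at -1.05.

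Counts for the enzymes around acetyl-CoA depended on 1 vehicle library. Acss2 itself (chromosome 2, 155517948 to 155585724), the gene of the inhibited enzyme, was at 35.7, 21.5, 22.8 and 23.0 CPM with vehicle and at 26.8, 24.5, 29.2 and 20.8 CPM after both agents. The groups overlapped, with a fold of -0.03 (95% interval -0.34 to 0.29, adjusted p = 0.901). Its mRNA is no measure of the inhibition of the protein. The mitochondrial homologue Acss1 had a fold of -0.39 (adjusted p = 0.0778) and Acly, the ATP-citrate lyase gene, 0.37 (adjusted p = 0.166). Of 16 tested genes of acetate uptake and acetyl-CoA supply 4 rose, Slc25a1, Acat1 (negative when scaled on pan-neuronal markers), Acat2 and Acaca, and 2 fell, the monocarboxylate transporter Slc16a1 and Acacb (median 0.18). These are 25% and 12.5%, beside 22.7% and 27.7% of all genes. Slc25a1, the mitochondrial citrate carrier, was at 322, 209, 231 and 245 CPM with vehicle and at 507, 536, 451 and 493 CPM after both agents (fold 0.98, SE 0.13). Without DMSO vehicle 1, which had the highest vehicle level of Acss2, Acly, Acat2 and Acaca, 9 of the 16 rose and 3 fell.

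Genes that write, read and erase histone acetylation changed in shares near those of all genes (22.7% rose and 27.7% fell). The shares that rose and fell were 33.3% and 25% of acetyltransferases, 30% and 30% of readers, and 18.2% and 36.4% of deacetylases. Of 12 acetyltransferases 4 rose, Crebbp, Kat2a, Kat5 and Naa60, by 0.18 to 0.47 (all 4 negative when scaled on pan-neuronal markers), and 3 fell, Kat2b, Kat6b and Hat1, by 0.28 to 0.53 on the log2 scale. Of 20 bromodomain readers 6 rose and 6 fell. Of 11 zinc-dependent deacetylases 2 rose, Hdac4 and Hdac11, and 4 fell, Hdac1, Hdac5, Hdac7 and Hdac9. Hdac5, a class IIa deacetylase that shuttles out of the nucleus in active neurons (chromosome 11, 102194432 to 102230166), was at 337, 292, 329 and 341 CPM with vehicle and at 193, 195, 194 and 185 CPM after both agents (fold -0.76, SE 0.13, adjusted p = 0.000328). Hdac9, of the same class, fell by 0.83 (SE 0.10), while their relative Hdac4 went from 85.7, 70.7, 72.8 and 71.3 CPM to 134, 130, 124 and 133 CPM (fold 0.79, SE 0.14). Hdac11 rose by 0.87 (SE 0.08). The groups did not overlap for these 4 genes, nor for 44.4% of all genes, and the 4 were named for small p-values in this comparison. Hdac4 did not pass with neuronal scaling (0.17, adjusted p = 0.0838) or with the non-neuronal marker mean as a covariate (0.16, adjusted p = 0.324), and Hdac5 did not pass with the covariate (-0.39, adjusted p = 0.132).

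Counts for energy metabolism were mostly near or below those of all genes (22.7% rose and 27.7% fell). The shares were 38.1% and 19% for glycolysis, 11.1% and 18.5% for the citric acid cycle, and 15.8% and 26.3% for fatty acid oxidation. Of 21 glucose uptake and glycolysis genes 8 rose and 4 fell, Slc2a1, Hk2, Pfkfb3 and Aldoc (median 0.07). Slc2a1, the glucose transporter of vessels and glia, fell from 41.5, 54.7, 53.9 and 51.6 CPM to 18.7, 18.1, 18.6 and 17.4 CPM (fold -1.47, SE 0.15), and Hk2, an inducible hexokinase, by 1.34 (SE 0.11). Eno2, the neuronal enolase, rose by 1.01 (SE 0.09). Of 27 genes of pyruvate entry and the citric acid cycle 3 rose, Mpc2, Pdk2 and Idh1 (all negative when scaled on pan-neuronal markers), and 5 fell, Pdk4, Pdp1, Pcx, Suclg2 and Idh2, the last of these by 0.84 (SE 0.14). Of 19 genes of mitochondrial fatty acid oxidation 3 rose, Cpt1c, Slc25a20 and Acaa2 (all negative under that scaling), and 5 fell, Cpt2, Hadh, Eci1, Decr1 and Cpt1a. Cpt1a, which admits fatty acids to mitochondria, fell by 0.93 (SE 0.19). Of 26 sterol synthesis and uptake genes 7 rose and 1 fell, and without DMSO vehicle 1 18 rose and 1 fell. Dhcr7, the last enzyme of cholesterol synthesis, was at 218 CPM in DMSO vehicle 1, at 108 to 118 CPM in the other vehicle libraries and at 272 to 297 CPM after both agents (fold 1.03, SE 0.20). Fasn, the fatty acid synthase, rose by 0.88 (SE 0.16), and Srebf1, a regulator of lipogenic genes, fell by 0.72 (SE 0.14).

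Oxidative stress, interferon and complement lists were lower. Of 27 Nrf2 and oxidative stress genes 21 fell (77.8%, beside 27.7% of all genes) and none rose (median -0.95). Mt2, a metal-binding metallothionein, was at 728, 1297, 1216 and 1417 CPM with vehicle and at 329, 306, 269 and 342 CPM after both agents (fold -1.90, SE 0.24), Gclc, which starts glutathione synthesis, fell by 1.15 (SE 0.13) and Prdx1, a peroxidase, by 0.99 (SE 0.12). Of 23 interferon-stimulated genes 19 fell and 1 rose, Stat2 (negative when scaled on pan-neuronal markers), with a median of -1.70, and the chemokine gene Cxcl10 and the ubiquitin-like Isg15 had folds of -4.10 (SE 0.51) and -2.61 (SE 0.37). Of 15 complement genes 14 fell (median -4.17), and C1qa of microglia was at 24.1, 102, 95 and 99.9 CPM with vehicle and at 1.87, 8.86, 1.95 and 5.08 CPM after both agents. Microglial and other non-neuronal markers fell in the same libraries. With their mean as a covariate the medians were -0.14 for the oxidative stress list, with 5 of 27 falling, -0.19 for the interferon list, with 1 rising and 1 falling, 0.70 for complement, with 2 of 15 rising and none falling, and -0.56 for immediate early genes, with 16 of 40 falling. Fewer of all genes rose and fewer fell with that covariate too, so these counts cannot be set beside the 27.7% above. The complement and microglial lists have the same highest fold against acetate alone (1.1064) and the same highest difference of differences (2.2694). They therefore probably share members, and the microglial list is part of the covariate. Complement genes would then be adjusted partly by themselves, so their result with the covariate is not independent. The covariate itself was 3.44 to 4.85 (mean log2 CPM) with vehicle and 2.01 to 2.38 after both agents, with no overlap, so that cell makeup and treatment cannot be told apart.

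Of 26 cell cycle and replication genes 16 fell (61.5%, beside 27.7% of all genes) and none rose (median -0.66), with Mcm7, a subunit of the replicative helicase, falling by 0.77 (SE 0.08) and Pcna by 0.69 (SE 0.12), and 11 fell without DMSO vehicle 1. Integrated stress, endoplasmic reticulum and heat shock genes had medians of -0.06, 0.06 and 0.05. Of 27 Atf4 and integrated stress response genes 4 rose, Atf5, Ddit4, Slc3a2 and Wars (all negative when scaled on pan-neuronal markers), and 8 fell, with Stc2 at -1.79 (SE 0.26) and Trib3 at -1.11 (SE 0.24). Of 24 endoplasmic reticulum genes 8 rose, Derl3 most, and 5 fell, Pdia4, P4hb, Dnajb9, Dnajc3 and the stress sensor Atf6, the last of these by 0.61 (SE 0.08). Of 18 apoptosis genes 10 rose (55.6%, beside 22.7% of all genes) and 4 fell (22.2%, beside 27.7%), Bcl2, Mcl1, Bcl2l11 and Casp8. The protective Bcl2 was at 22.7, 31.0, 25.0 and 29.6 CPM with vehicle and at 8.75, 8.59, 8.99 and 10.2 CPM after both agents (fold -1.57, SE 0.13), and the proapoptotic BH3-only gene Hrk at 77.3, 69.8, 92.6 and 86.0 CPM and then at 204, 184, 203 and 203 CPM (fold 1.29, SE 0.17). Of 16 neurotrophin and receptor genes 4 rose, Ntrk3 and Igf1r (both negative under that scaling), Gfra2 and Ret, and 6 fell. Gfra2, the neurturin co-receptor, was at 15.2, 14.5, 14.7 and 14.5 CPM with vehicle and at 45.6, 54.2, 52.5 and 51.5 CPM after both agents (fold 1.79, SE 0.12), Ret, the signalling receptor it partners, rose by 1.03 (SE 0.17), and Ntrk2, the Bdnf receptor, fell by 0.95 (SE 0.14). Of 18 Ras-MAPK feedback genes 2 rose, Rasl11b and Nf1 (both negative under that scaling), and 7 fell, among them Spry1 and Spry4, both with -0.87. Spry1 was at 41.0 CPM in DMSO vehicle 1 and 14.3 to 16.8 CPM in the other vehicle libraries. Its fold was -0.39 without DMSO vehicle 1. It lost its call without DMSO vehicle 1 and inhibitor vehicle 2 together, and with the 8 libraries of both groups alone. Of 14 heat shock genes 2 rose, Hspa1a and Dnaja1 (both negative under that scaling), and 2 fell, Hspb1 and Bag3. Of 18 clock genes 3 rose, Nr1d1, Dbp and Tef (all negative under that scaling), and 6 fell. Of 17 fatty acid synthesis genes 4 rose, Fasn, and Elovl4, Fads3 and Acsl4 (these 3 negative under that scaling), and 3 fell, Srebf1, Elovl1 and Gpam. Of Atf4 genes 14.8% rose and 29.6% fell, of endoplasmic reticulum genes 33.3% and 20.8%, and of neurotrophin genes 25% and 37.5%. The shares were 11.1% and 38.9% for Ras-MAPK feedback genes, 14.3% and 14.3% for heat shock genes and 16.7% and 33.3% for clock genes. Those for fatty acid synthesis were 23.5% and 17.6%. Of all genes 22.7% rose and 27.7% fell, and several of these lists lie near that.

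The double treatment was also set against acetate alone, to see what differed when the inhibitor was added to acetate. This comparison uses the same inhibitor acetate libraries, so its values are given beside the others and not as further support. It called 356 genes higher (2.36%) and 515 lower (3.42%), 5.78% in all. Without DMSO acetate 2 these counts were 97 and 90. Elk1, a transcription factor of the serum response pathway (chromosome X, 20933395 to 20950608), was at 33.8, 35.1, 34.9 and 35.6 CPM with vehicle, at 49.1, 38.7, 36.3 and 34.7 CPM in DMSO acetate and at 107, 113, 110 and 109 CPM in inhibitor acetate, with 52.9, 83.6 and 53.7 CPM in inhibitor vehicle. The doubly treated libraries were above all others, with a fold of 1.65 (SE 0.13) over vehicle and 1.46 (SE 0.13, adjusted p = 5.9e-05) over acetate alone. Slc44a5, a choline transporter-like gene, had a fold of 1.20 (SE 0.13) over vehicle and 1.52 (SE 0.14) over acetate alone, and was at 24.4 to 33.9 CPM with inhibitor alone and 33.9 to 37.3 CPM with both. Il34 was 2.13 above vehicle and 1.36 above acetate alone, Derl3 2.85 and 1.54, Plcxd2 2.37 and 1.23, and Gfra2 1.79 and 0.73, and all of these differences passed the test. That of Plcxd2 did not pass without any 1 of DMSO acetate 2 (adjusted p = 0.0693), DMSO acetate 3 and inhibitor acetate 3. Rnf145, a ubiquitin ligase of sterol control, and Sh3bp5, which activates Rab11, were also higher than with acetate alone, Rnf145 by 0.89 (SE 0.09) and Sh3bp5 at 52.8 to 60.5 CPM against 23.2 to 29.8 CPM. Nts did not pass this test (fold 0.50, adjusted p = 0.25).

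Part of the activity list was lower than with acetate alone. Of its 40 genes 9 fell, 22.5% beside 3.42% of all genes, and 1 rose, Plk2, with a median of -0.23. Bdnf was at 29.6, 36.2, 33.9 and 38.9 CPM with acetate alone, against 14.2 to 18.8 CPM with both agents (fold -1.04, SE 0.14, adjusted p = 0.0022). Vgf was at 473, 506, 402 and 449 CPM with acetate alone, against 131 to 197 CPM (fold -1.48, SE 0.21), and Arc at 7.57, 6.15, 5.67 and 5.78 CPM, against 1.95 to 2.62 CPM (fold -1.49, SE 0.33). For these 3 genes the 2 groups did not overlap. The share of all genes without overlap was not determined for this comparison. Arc did not pass without DMSO acetate 2 (adjusted p = 0.0574), inhibitor acetate 1 (0.0545) or inhibitor acetate 3 (0.0698), or with neuronal scaling. Fos had a fold of 0.37 (adjusted p = 0.47) and Nptx2 of -0.66 (adjusted p = 0.15) in this comparison, although both were far below vehicle. Of the deacetylases Hdac5 (-0.83, SE 0.13) and Hdac9 (-0.62, SE 0.10) fell and Hdac4 (0.49, SE 0.14) rose. Hdac4 did not pass with the replicate block or without any 1 of the 8 libraries (adjusted p = 0.0898 to 0.119), and Hdac5 (adjusted p = 0.081) and Hdac9 (adjusted p = 0.146) did not with neuronal scaling. Without the expression filter Hdac4 did not pass either. Of the apoptosis genes Bid, Bbc3, Hrk and Apaf1 rose and Bcl2 fell, of the endoplasmic reticulum genes Derl3, Hsp90b1, Herpud1 and Sel1l rose, of the channels Cacna1i rose and Hcn2, Kcna1 and Kcna4 fell, and the p75 neurotrophin receptor gene Ngfr fell by 0.89 (SE 0.15). Several of these calls were lost in other settings. Apaf1, Bbc3, Bcl2, Hsp90b1, Herpud1, Sel1l, Hcn2, Kcna4 and Cacna1i each lost theirs without DMSO acetate 2 and, except for Cacna1i, without other single libraries. Bbc3, Bcl2, Hsp90b1 and Sel1l lost it with the replicate block, and Apaf1, Bbc3, Bcl2, Bid, Herpud1, Hsp90b1, Hcn2, Kcna1, Kcna4, Cacna1i and Ngfr with neuronal scaling. Sel1l also lost its call without the expression filter. Derl3 and Hrk passed in each of these settings. Without DMSO acetate 2, 5 activity genes fell, and with scaling on pan-neuronal markers 4 did. Fewer of all genes fell in both settings too, 90 without DMSO acetate 2, so these counts cannot be set beside the 3.42% above.

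**Figure D4:**
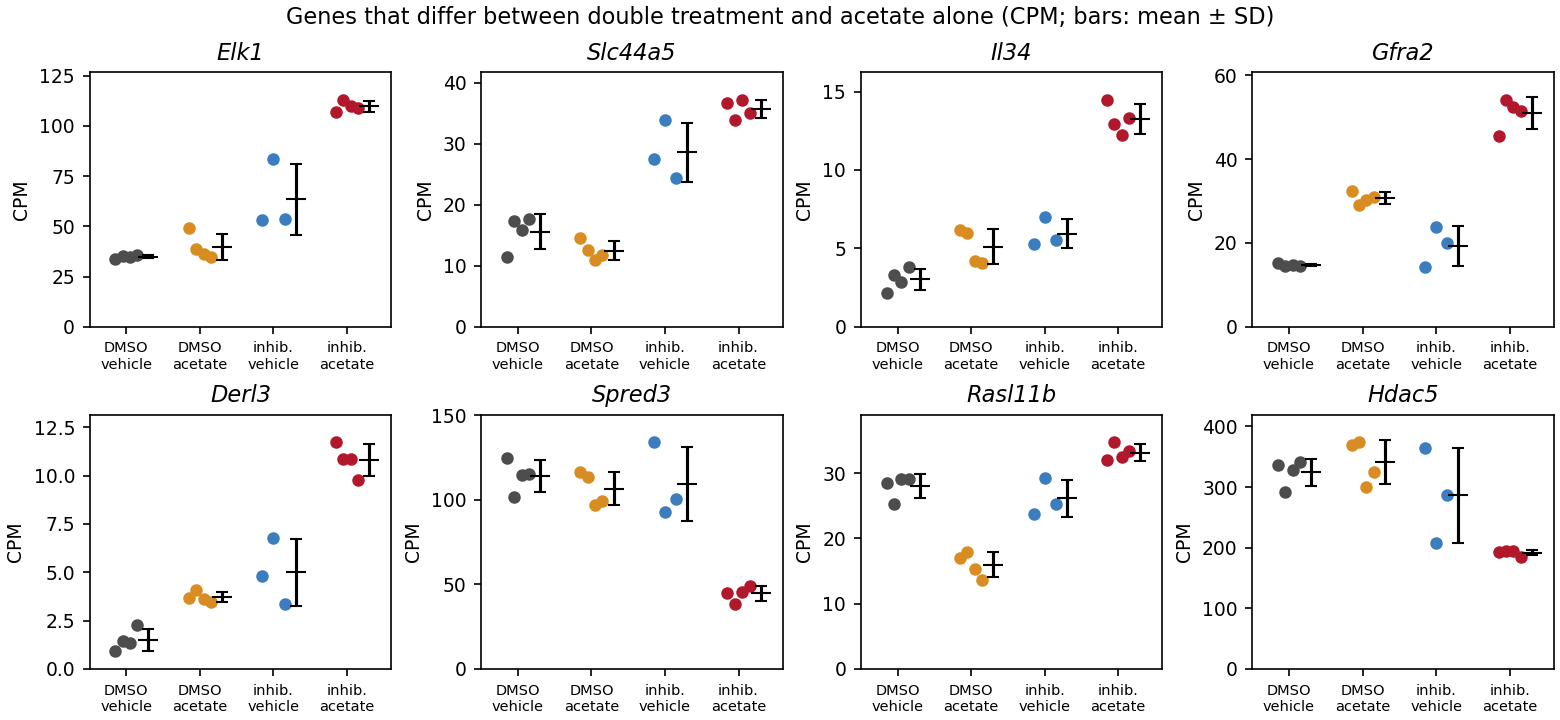
CPM of 8 genes that differed between inhibitor acetate and DMSO acetate, in each library of the 4 treatment groups, with points for libraries and bars for the mean and SD. Elk1 lies at 107 to 113 CPM in inhibitor acetate and at 83.6 CPM or less in every other library, and Spred3 at 38.7 to 49.1 CPM in inhibitor acetate against 93.1 CPM or more in every other library.

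Respiratory chain and ribosomal protein genes stood close to vehicle after double treatment and below acetate alone. The mean log2 CPM of 47 nuclear-encoded respiratory chain and ATP synthase subunits was 7.73, 7.48, 7.61 and 7.61 in DMSO vehicle 1 to 4, 7.91, 8.16, 8.06 and 8.07 in DMSO acetate 1 to 4, and 7.78, 7.74, 7.73 and 7.70 in inhibitor acetate 1 to 4. Against vehicle 8 of them rose (17%, beside 22.7% of all genes) and 1 fell, Ndufs3. Against acetate alone 17 of 47 fell (36.2%, beside 3.42% of all genes) and none rose, with a median of -0.32, and acetate alone raised 38 of 47 over vehicle (80.9%, beside 23.7% of all genes higher and 51.2% changed). Inhibitor alone gave them a median of 0.10 over vehicle, beside 5.46% of all genes changed, 3.47% higher and 1.99% lower. For 41 cytosolic ribosomal protein genes the mean log2 CPM was 7.99 to 8.08 in DMSO vehicle, 8.25 to 8.54 in DMSO acetate and 8.03 to 8.12 in inhibitor acetate. Against vehicle 2 of them rose, Rpl15 and Rpl22 (both negative when scaled on pan-neuronal markers), and 4 fell, among them Rpl4, Rps6 and Rps9, while 22 fell against acetate alone, with a median of -0.35, and 32 rose with acetate alone. Atp5d, a subunit of ATP synthase, was at 473, 365, 445 and 457 CPM with vehicle, 708, 883, 744 and 773 CPM in DMSO acetate and 605, 597, 526 and 549 CPM in inhibitor acetate, a fold of 0.39 (SE 0.11, negative under that scaling) over vehicle and -0.45 (SE 0.11) against acetate alone. Rps9 had folds of -0.26 (SE 0.07) and -0.36 (SE 0.07). The counts against acetate alone rested on single libraries: 2 of 47 and 5 of 41 fell without DMSO acetate 2, 2 and 10 without inhibitor acetate 4, and 0 and 0 with scaling on pan-neuronal markers, with medians of -0.23 and -0.26. The drop was not confined to these lists. Over all genes the lower count went from 515 to 90 without DMSO acetate 2. Few of all genes were lower with scaling on pan-neuronal markers, so the counts of 0 say little about these lists. Ribosomal protein genes share sequence with many pseudogenes, and their counts are uncertain to that extent.

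**Figure D5:**
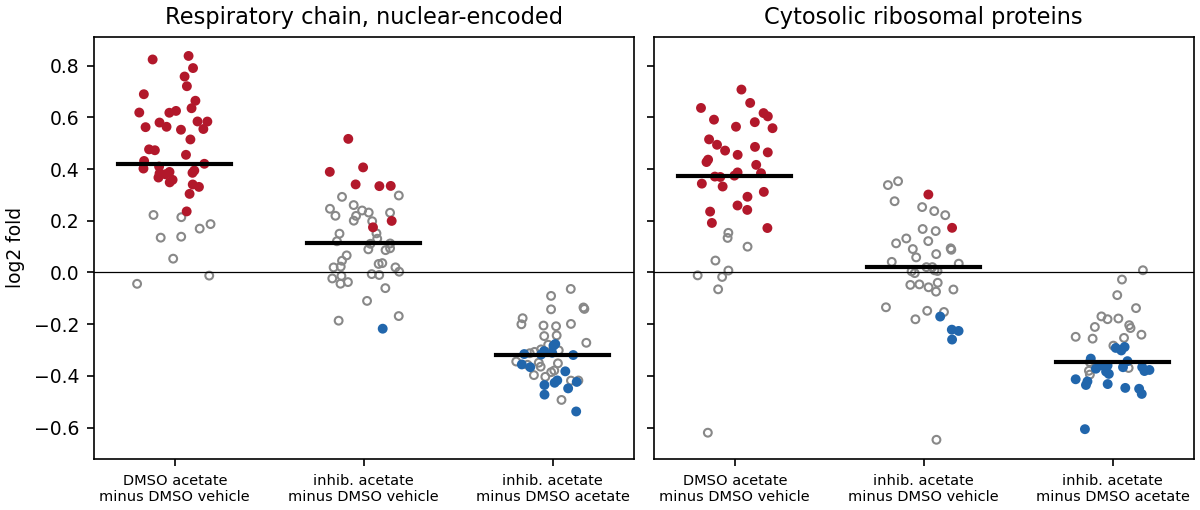
Log2 folds of 47 respiratory chain and 41 cytosolic ribosomal protein genes in 3 comparisons that share libraries, filled red where they rose, blue where they fell and open where they did not pass an adjusted p of 0.05, with a bar at the median. The medians are 0.42, 0.11 and -0.32 for respiratory chain genes and 0.37, 0.02 and -0.35 for ribosomal protein genes, from left to right.

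Whether the response to acetate differed with the inhibitor was tested as a difference of differences over the 4 groups. It was called for 3 genes (0.0199%), 2 positive (0.0133%) and 1 negative (0.00663%), and 3113 had an unadjusted p under 0.05. The count was not stable, with 266 positive and 752 negative genes in DESeq2, and 260 and 745 in edgeR without inhibitor vehicle 3. With neuronal scaling Spred3 (adjusted p = 0.307) and Sel1l3 (0.226) did not pass, and Spred3 did not without any 1 of 6 libraries (adjusted p up to 0.0619), DMSO vehicle 2 to 4, DMSO acetate 2 and inhibitor acetate 1 and 3. Spred3, an inhibitor of Ras-MAPK signalling (chromosome 7, 29158829 to 29170411), was at 125, 101, 115 and 115 CPM with vehicle, 117, 114, 96.8 and 99.5 CPM in DMSO acetate, 134, 93.1 and 101 CPM in inhibitor vehicle and 45.1, 38.7, 45.8 and 49.1 CPM in inhibitor acetate. Only the doubly treated libraries were low among these 15, and the difference of differences was -1.19 (SE 0.17, adjusted p = 0.015). Rasl11b, a Ras-like GTPase gene (chromosome 5, 74195286 to 74199481), was at 28.4, 25.2, 29.1 and 29.2 CPM with vehicle, at 17.0, 17.9, 15.3 and 13.6 CPM in DMSO acetate and at 32.0, 34.8, 32.4 and 33.4 CPM in inhibitor acetate, so that it fell with acetate alone by 0.81 and lay 0.25 above vehicle with both agents, though below it when scaled on pan-neuronal markers (difference 1.15, SE 0.14, adjusted p = 0.0035). Sel1l3 (chromosome 5, 53107083 to 53213927) was at 44.5, 49.0, 50.2 and 46.8 CPM with vehicle, at 23.9 to 28.7 CPM with acetate, at 28.5 to 32.4 CPM with inhibitor and at 29.6 to 33.8 CPM with both, lower by about as much with either agent as with both (difference 0.95, SE 0.11, adjusted p = 0.0035). Against inhibitor alone, with 3 libraries of which inhibitor vehicle 2 stood apart (microglial mean log2 CPM -0.18, against 4.81 and 5.09 in the others), 2180 genes were higher (14.5%) and 3103 lower (20.6%) after double treatment. Bdnf, Vgf and Arc were among the lower, with folds of -1.24 (SE 0.15), -1.42 (SE 0.22) and -1.56 (SE 0.35). Arc was at 9.56, 2.01 and 8.28 CPM with inhibitor alone, so that inhibitor vehicle 2 lay within the doubly treated range.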

How the data were processed

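RNA was made into 15 strand-specific libraries (NEBNext Ultra II Directional), per the labels' protocols. What the authors deposited is 1 table of raw, whole-number read counts by gene symbol. Per the submitters' processing notes, mm10, STAR 2.5.2a, HTSeq 0.6.1p1 and DESeq2 were used, while the sources used here do not give the annotation, counting mode or strand setting, which leaves overlapping, antisense and near-identical genes uncertain. The 5 summary rows that name no gene held 38.9% to 47.4% of a library's counts and were left out. Groups came from the labels.

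The model was fitted with edgeR 4.0.16 (on limma 3.58.1 and R 4.3.3): default expression filter, TMM scaling (factors 0.89 to 1.13), 1 quasi-likelihood fit of all 15 libraries with a mean per group, and contrasts adjusted over 15075 genes, which held 99.97% of gene counts. The biological coefficient of variation was 16.8%. An SE was taken as the absolute fold over the root of its F statistic, and 2 was the prior count for log2 CPM. Intervals of folds were built from that SE and so cover the spread between libraries as well as counting error. That spread may be technical.

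The members and gene lists were chosen with earlier results of these data known. Genes were named by rule: up to 12 genes each at the top and bottom by fold over vehicle among called genes averaging 2 log2 CPM or more whose groups did not overlap, leaving out clone-named, ribosomal protein and mitochondrially encoded genes, the same for up to 8 each at an average of at least 5 outside the non-neuronal marker lists, up to 5 per list by smallest p, up to 8 called against vehicle and acetate alone, up to 6 with a difference of differences, and Acss2, Acly, Acss1, Bdnf, Fos and Arc. Genes outside it (those printed for a CRE, Xist, Eif2s3y, members of small counts) were added after their values were seen, and not every gene the rule allows is printed. Some genes are not reported here.

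Same-numbered libraries of the 2 groups had correlations of their deviations of 0.232, -0.034, -0.237 and 0.17, so the numbers do not pair them. Chi-square per gene between libraries of 1 group was 4.65 to 86.8 in DMSO vehicle and 7.83 to 19 in inhibitor acetate, so none was a copy of another. Coordinates are from the GENCODE annotation of GRCm38. In simulated data with 14857 genes, 61.2%, 80.6% and 87.9% of genes changed 1.5, 2 and 3 fold were recovered for the main comparison, with 12 false calls. The simulation changed few genes, in random directions, from a mean profile shared by all libraries. It therefore does not cover a comparison in which 50.4% of genes changed and results moved with the scaling. Alternatives were DESeq2 1.42.0, other scalings, no filter, a replicate block, a marker covariate and libraries left out.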

Additional observations from a re-analysis of the deposited data

Results flagged for a closer look

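In groups of 4 libraries, a library was marked where its gap to the nearest other made up more of the group's range than Dixon's 95% critical value, which chance does for about 1 group in 20. Of 366 pairs of a named gene and a group 32 (8.7%) were marked, and 24 of these marks fell on DMSO vehicle 1. In CPM, it was the highest vehicle library for Mdga1 (238), Fxyd7 (34.6), Scn3b (97.8), Kcna1 (120.1), Tubb4a (708), Gap43 (783), Tubb3 (2110.2), Hdac4 (85.7), Acss2 (35.7), Acly (244), Acat2 (207), Acaca (81.8), Dhcr7 (218), Fasn (759), Spry4 (53.7), Sipa1l1 (208), Cck (145), Spry1 (41.0) and Idh1 (172), and the lowest for Scg2 (81.9), C1qa (24.1), Eci1 (18.6), Hspa1a (4.97) and Hspb1 (2.67). The same library was marked by its marker lists in mean log2 CPM, highest for pan-neuronal markers (8.32) and lowest for microglial markers (3.03), meningeal markers (2.63) and the mean of 5 non-neuronal lists (3.44).

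The other marks, in CPM, were DMSO vehicle 2 as the lowest of its group for Nrsn2 (1.11), Kat2a (131) and Fads3 (47.6) and as the highest for Eif2s3y (19.4) and Camk2d (34.9), DMSO vehicle 4 as the highest for Foxj1 (109), inhibitor acetate 2 as the lowest for Hrk (184) and inhibitor acetate 3 as the lowest for Baiap2 (80.9).

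The response to acetate differed with and without the inhibitor for Rasl11b (difference of log2 folds 1.15), Spred3 (-1.19) and Sel1l3 (0.95), each tested as a difference of differences. The cause was not tested.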

How the results depend on the processing

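The count of genes that differed between inhibitor acetate and DMSO vehicle stayed within 1.5 times of 3427 higher and 4175 lower under DESeq2, DESeq2 size factors, upper-quartile scaling, no filter, the replicate block, the 8 libraries alone and each library left out (2981 to 3604 higher, 3624 to 4253 lower). Scaling on pan-neuronal markers gave 412 and 11212, and the non-neuronal covariate 1278 and 1273. Counts per list with that covariate, given above, are to be read beside its own 1278 and 1273. Against acetate alone (356 and 515), DESeq2 gave 591 and 880, the replicate block 234 and 282, leaving out DMSO vehicle 1 and inhibitor vehicle 2 together 1050 and 1637, neuronal scaling 50 and 14, the covariate 844 and 1365, and single libraries left out 97 to 347 and 90 to 454. Against inhibitor alone (2180 and 3103), leaving out those 2 libraries gave 3434 higher, neuronal scaling 188 and 10087, the covariate 815 and 1060, and single libraries left out 1245 to 2894 and 1877 to 3616. The difference of differences, 2 higher and 1 lower, became 266 and 752 with DESeq2, 237 and 417 without those 2 libraries, 260 and 574 with the covariate, 0 lower with neuronal scaling, and 2 to 260 and 0 to 745 with single libraries left out. The causes were not tested.

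Named genes whose fold over vehicle changed sign under neuronal scaling were Acaa2 (-0.2135), Acat1 (-0.2189), Acly (-0.2009), Acsl4 (-0.2392), Atf5 (-0.0596), Atp5d (-0.2357), Cpt1c (-0.0718), Crebbp (-0.163), Dbp (-0.2241), Ddit4 (-0.0329), Dnaja1 (-0.3971), Elovl4 (-0.0945), Fads3 (-0.0181), Gabra3 (-0.0289), Gabra5 (-0.334), Gabrb2 (-0.1218), Homer1 (-0.3321), Hspa1a (-0.2474), Idh1 (-0.0011), Igf1r (-0.4009), Kat2a (-0.4475), Kat5 (-0.3868), Mpc2 (-0.3221), Naa60 (-0.3128), Nf1 (-0.4307), Nr1d1 (-0.1448), Ntrk3 (-0.1525), Pdk2 (-0.204), Rasl11b (-0.386), Rpl15 (-0.4526), Rpl22 (-0.3376), Slc25a20 (-0.4875), Slc32a1 (-0.299), Slc3a2 (-0.3435), Stat2 (-0.1515), Tef (-0.248) and Wars (-0.3488). With the covariate they were Acacb (0.4606), Acat2 (-0.0694), Acly (-0.3453), Adcyap1 (0.058), Aldoc (0.0437), Atf5 (-0.0411), Bag3 (0.0767), C1qa (0.3666), Calb2 (-0.1092), Cck (-0.5907), Cpt2 (0.0443), Crebbp (-0.1338), Dnaja1 (-0.0282), Dusp1 (0.1294), Emx1 (0.1944), Grm2 (0.1823), Homer1 (-0.131), Hspb1 (0.3667), Idh1 (-0.0824), Pdia4 (0.0729), Plk2 (0.1456), Pnoc (0.0654), Slc16a1 (0.1787) and Slc3a2 (-0.0086). With the covariate 101 of 183 named genes changed their call, and besides these sign changes 77 lost it: Acaa2, Acaca, Acat1, Acsl4, Atp5d, Bcl2l11, C3, Camk2d, Casp8, Cort, Cpt1c, Decr1, Dhcr7, Dlg1, Dlg4, Dnajb9, Dnajc3, Elovl1, Elovl4, Fasn, Fezf2, Fos, Gabra5, Gabrb2, Gad2, Gap43, Gpam, Grm7, Hdac1, Hdac4, Hdac5, Hdac7, Idh2, Igf1r, Isg15, Kat2a, Kat2b, Kat5, Kat6b, Kcna4, Mdga1, Mpc2, Naa60, Nf1, Nlgn1, Nmb, Nr1d1, Nrgn, Ntrk2, Ntrk3, Pcx, Pdgfrb, Pdk4, Pdp1, Prox1, Pvalb, Rasl11b, Reln, Ret, Rpl15, Rpl22, Rpl4, Rps6, Scg2, Sipa1l1, Slc17a7, Slc25a20, Slc32a1, Sox9, Srebf1, Stc2, Sv2c, Tef, Trib3, Tubb3, Tubb4a and Wars. Uncalled folds near 0 also crossed it. Plk2 was at 0.0046 with DESeq2, 0.0051 with its size factors, and -0.0348 to 0.0416 with single libraries left out. Acss2 was at 0.1758 without DMSO vehicle 1 and inhibitor vehicle 2, and -0.1037 to 0.1711 with single libraries left out. The replicate numbers do not pair the samples, and the replicate block left 3239 higher and 3945 lower genes against vehicle.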
